A study of Mus musculus with 2 samples.

Results

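The cells described here are fibroblast-like cells found in tumours grown from MC38, a mouse line labelled as colon adenocarcinoma, in a single-cell RNA sequencing study of the effect of SPP1 under anti-PD-1 treatment. The members were chosen by measured levels in these same cells, so those levels are no finding. A cell was a member when it held at least 2000 unique molecular identifiers (UMIs, counted molecules), at most 15% of them from mitochondrial genes, at least 50 Col3a1 UMIs per 10000, at least 1 Col14a1 UMI, no Ptprc or Pecam1 UMI, and at most 5 UMIs per 10000 of Hmga2, Sox9, Tafa1 and Hoxa9 together. The rule left 48 cells in the vector-labelled library and 39 in the SPP1-labelled library, 87 of the 28346 barcodes deposited. The comparison cells, called tumour cells below, held at least 3000 UMIs, more than 10 UMIs per 10000 of the same 4 genes and no Ptprc UMI, and numbered 8110 and 8901.

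MC38 cells were transduced with lentivirus as a stable pool carrying either SPP1 or the control vector and injected under the skin of C57BL/6 mice, with the genotype labelled WT in both groups. From day 7 all mice received anti-PD-1 into the peritoneum in doses of 10 mg/kg, given 2 times each week over 2 weeks, so that no untreated tumour enters any comparison, and neither the age nor the sex of the mice is known from the labels. The tumour of 1 mouse per group was digested with enzymes, strained and sequenced as 1 library. With 1 library per group there is no replicate and no test: each ratio between the libraries compares 2 tumours, and each 95% interval covers counting error only. In each pair of values below the vector-labelled library comes first.

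Fibroblasts are the mesenchymal cells that make and remodel the collagen-rich matrix of connective tissue. In tumours they can take on a myofibroblast state, marked by contractile and matrix genes such as Acta2, Postn and Cthrc1, or an inflammatory state marked by cytokines, chemokines and complement, and they are a known source of osteopontin, the secreted protein encoded by Spp1. Decorin (Dcn) and lumican (Lum) are small proteoglycans that bind collagen fibrils, Col14a1 encodes a collagen on the fibril surface, and Pdgfra encodes a receptor for platelet-derived growth factors.

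The libraries held 164247003 and 164599332 UMIs in 14317 and 14029 barcodes. The member cells had a median of 11691 and 10259 UMIs, against 13222 and 12405 in the tumour cells. A barcode sequence was found in both libraries for 93 barcodes, none of them members, and Scrublet marked 525 and 653 barcodes as doublets, none of them members. Spp1 in the tumour cells was at 148 and 141 counts per 1000000 UMIs (CPM), so the counts do not show the SPP1 label, and whether a transcript of the lentiviral vector would be counted as Spp1 is not given in the sources used here. The library names therefore follow the labels alone. Counts of genes with near-identical copies, such as Ly6c1, Ifi205 and H2-K1, can be shared out among the copies and are uncertain in that respect.

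The member cells were not 1 kind of cell. They split on Postn, which encodes the matrix protein periostin and which the rule did not use, into 51 cells at 10 or more UMIs per 10000 (26 and 25, called Postn-high) and 36 below it (22 and 14, Postn-low). The highest cell below that value held 7.30 and the lowest above it 11.2 UMIs per 10000, and 33 of the 36 Postn-low cells held no Postn UMI. The value was chosen after the data were seen. Lum was detected in 46 of the 51 Postn-high cells and in 0 of the 36 Postn-low cells, which allows up to 8.33% of cells with a Lum UMI at this depth. Cthrc1, which encodes a secreted protein of remodelling matrix, was detected in 45 of 51 and in 0 of 36.

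Xist, the RNA that coats the inactive X chromosome and that entered neither the rule nor the split, separated the same cells. It was detected in 25 of 26 and 22 of 25 Postn-high cells, in 0 of 22 and 2 of 14 Postn-low cells, and in 4.44% and 4.85% of the tumour cells. The Xist level was 552 CPM (478 to 635) and 703 CPM (609.8 to 807) in the Postn-high cells, 0 and 14.7 CPM in the Postn-low cells and 3.48 and 4.28 CPM in the tumour cells. Of the Y-linked genes listed, Ddx3y held 3 and 4 UMIs in the Postn-high cells, and Kdm5d, Uty and Eif2s3y held none. In the leukocytes of the same libraries, taken as 952 and 704 cells with a Ptprc UMI, the Xist level was 881 and 930.4 CPM. With every cell thinned to 2000 UMIs, Xist was still detected in 73.1% and 80% of the Postn-high cells against 1.26% and 1.24% of the tumour cells.

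**Figure D1:**
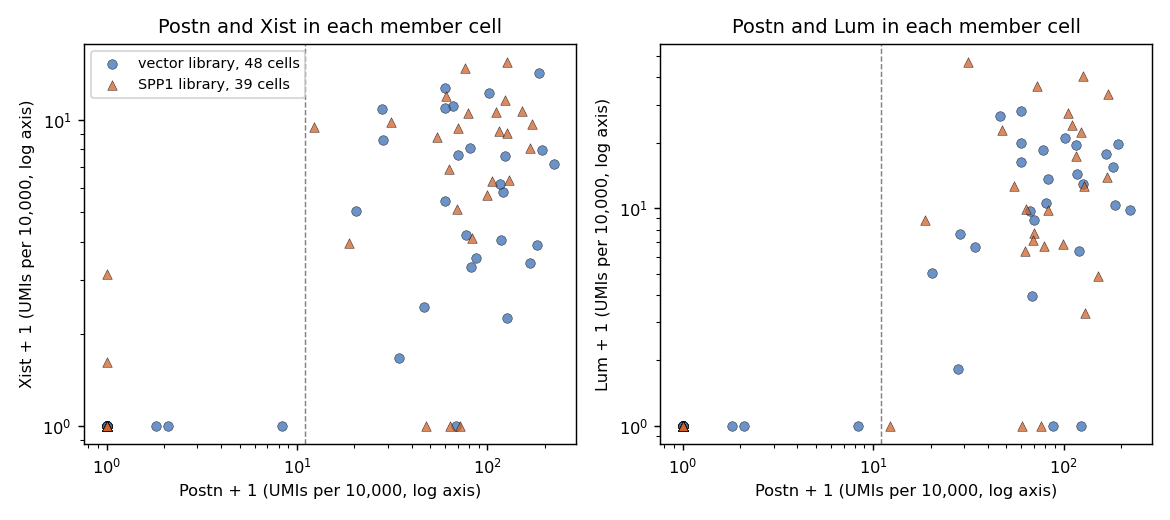
Postn (horizontal axis) against Xist (left) and Lum (right) in each of the 87 member cells, in UMIs per 10000 plus 1 on log axes; circles are the vector-labelled and triangles the SPP1-labelled library, and the dashed line is 10 Postn UMIs per 10000. Cells to the right of the line mostly hold Xist and Lum, and those to the left hold no Lum.

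The Postn-low cells met the rule at its edge. All 36 held only 1 or 2 Col14a1 UMIs, 31 of them a single one, against 12 of 51 Postn-high cells with 1 or 2. Outside the rule, 451 and 297 cells met all but the Col14a1 limit, 3 and 9 of them Postn-high. A further 142 and 197 met all but the limit on the 4 tumour genes. High Col3a1 was common, at 5051 of 12360 and 5915 of 12431 barcodes that passed the UMI and mitochondrial limits. Dkk2, which encodes a secreted Wnt antagonist, was at 805 and 1238 CPM in the tumour cells, and it was detected in 33 of the 36 Postn-low cells, at 388 and 634 CPM, but in 16 of the 51 Postn-high cells, at 19.4 and 66.2 CPM. Genes were compared for a difference in level, by size alone, where they held at least 20 UMIs in a set of cells, both libraries together. Of 3623 such genes in the Postn-low cells, 3.31% differed from the tumour cells by 2-fold or more in the same direction in both libraries. In the Postn-high cells this share was 24.4% of 4902 genes, and in all members 14.9% of 6740, with 716 genes (10.6%) higher and 285 (4.23%) lower than in the tumour cells. The limit of 20 UMIs was set in the described cells alone, so genes scarce in them drop out even where tumour cells hold many. The shares higher and lower are therefore not weighed against each other. The share for the Postn-high cells comes from more UMIs. Dkk2 in them is not distinguished here from free tumour RNA in the droplets, which was not tested.

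Of the 5 markers that name the cells, the rule itself required Col3a1 and Col14a1, which leaves Dcn, Pdgfra and Lum. In the Postn-high cells Dcn was detected in 26 of 26 and 24 of 25 cells, Pdgfra in 23 of 26 and 16 of 25 cells and Lum in 24 of 26 and 22 of 25 cells. A single Postn-high cell, in the SPP1-labelled library, held none of the 3. In the Postn-low cells Lum was at 0 UMIs, which allows up to 12.4 and 22.1 CPM, and Pdgfra was at 45.4 and 36.9 CPM, close to the 36.8 and 37.1 CPM of the tumour cells. Dcn was at 3159 and 2713 CPM in the Postn-low cells and 719 and 1014 CPM in the tumour cells. Values below are given for the 2 sets of cells apart.

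The member cells were 0.388% (0.286 to 0.515%, exact binomial interval) and 0.314% (0.223 to 0.429%) of the 12360 and 12431 barcodes that passed the UMI and mitochondrial limits. The log2 ratio of the SPP1-labelled over the vector-labelled share was -0.31 (-0.96 to 0.33), an interval that includes 0. The Postn-high cells were 0.210% (0.137 to 0.308%) and 0.201% (0.130 to 0.297%), with a log2 ratio of -0.065 (-0.92 to 0.78). Enzymatic digestion and the rule both set such a share, so it is not the share of fibroblasts in the tumour. Outside the rule, 41 and 49 further cells with 2000 or more UMIs were Postn-high, of which 35 and 34 held too many UMIs of the 4 tumour genes and 32 and 39 held no Col14a1 UMI. Just inside the limit on those 4 genes the highest member held 4.87 and 4.79 UMIs per 10000, and the nearest cell outside that met all else held 5.38 and 5.02.

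Markers of leukocytes, endothelium and epithelium were near 0 in the Postn-high cells, while pericyte and adipocyte markers included genes that were not. The summed level of 8 phagocyte markers was 52.7 and 34.8 CPM, against 10346 and 13353 CPM in the leukocytes and 41.4 and 55.4 CPM in the tumour cells, and 2 of the 8 were at 0. The sum of 8 T and NK cell markers was 0 and 10.4 CPM, that of 8 endothelial markers was 27.8 and 17.4 CPM, and that of 8 epithelial markers was 8.33 and 0 CPM. The 8 pericyte and smooth muscle markers summed to 44.4 and 453 CPM. A single cell of the SPP1-labelled library held all 63 UMIs of Rgs5, a pericyte marker, in that group, a level of 219 CPM. It is the cell with no Dcn, Lum or Pdgfra UMI, and without it the pericyte sum was 76.0 CPM in that library. Of all genes compared 11.6% were past 2-fold between libraries without it, as against 11.5% with it. Of 8 adipocyte markers 6 were at 0, and the other 2, the lipid genes Lpl and Fabp4, were at 583 and 62.7 CPM, in 20 of 26 and 6 of 25 cells, and at 0 and 104 CPM. The cell with Rgs5 held 28 of the 30 Fabp4 UMIs. Markers of Schwann cells summed to 25.0 and 20.9 CPM, with 5 of 8 at 0, and those of muscle progenitors to 0 and 6.97 CPM, with 7 of 8 at 0. The part of these other cell types in the results below was not tested.

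The Postn-high cells were filled with RNA for fibrillar collagens. Col1a1, the main chain of type I collagen, was at 26486 CPM (25957 to 27023) and 17862 CPM (17377 to 18358) in them, against 273 and 58.99 CPM in the Postn-low cells, 177 and 153 CPM in the tumour cells and 20.01 and 29.9 CPM in the leukocytes. Every Postn-high cell held Col1a1, from 50.7 to 647 UMIs per 10000 in the vector-labelled library (median 209) and from 60.2 to 296 in the other (median 182). Col1a2, the second chain, was at 21010 and 15114 CPM against 606 and 639.7 CPM in the tumour cells. Col5a2, a chain of the type V collagen that nucleates fibrils, was at 5803 and 4726 against 175 and 171 CPM. Col3a1, which chose the members, was at 25731 and 16490.1 CPM in the Postn-high and 16221 and 16996 CPM in the Postn-low cells, as the rule required of both sets.

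Counted over the list, 6 of 6 fibrillar collagen genes other than Col3a1 were 2-fold or more above the tumour cells in both libraries, as were 8 of 9 compared genes for network and fibril-associated collagens. Of all 4902 genes compared, 16.6% were higher and 7.81% lower in this way. The limit of 20 UMIs in these cells left out genes scarce in them, which can lower the second share. The rule chose the cells against tumour genes, so these counts describe the set and are not evidence for it. Among these collagens the log2 ratio to the tumour cells was highest for Col12a1, at 11.31 and 10.08, and Col15a1, at 11.31 and 10.23, which encode collagens at fibril surfaces and basement membranes. Col12a1 was at 1987 and 951 CPM against 0.782 and 0.880 CPM in the tumour cells, and Col15a1 at 1729 and 1431 against 0.682 and 1.19 CPM. The basement membrane chain Col4a1 was at 658 and 777 against 50.3 and 50.4 CPM, and the microfibril chain Col6a3 at 4316 and 3281 against 816 and 642 CPM. Col16a1 was the exception, at 155 and 174 against 87.1 and 86.3 CPM, and Col18a1 had under 20 UMIs and was left out.

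**Figure D2:**
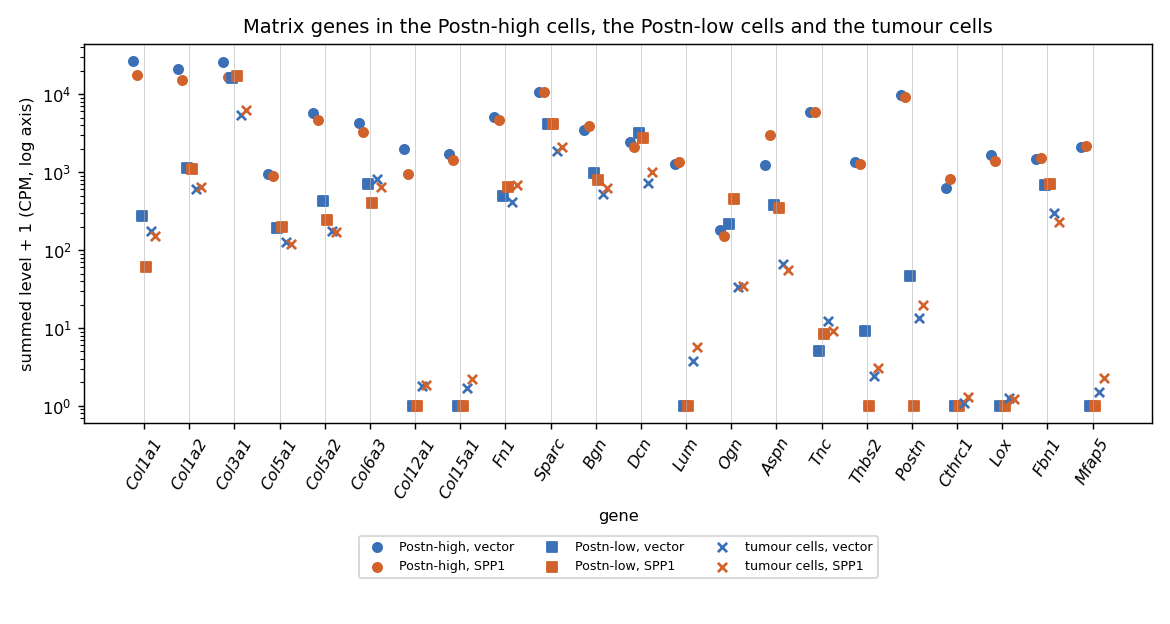
Summed level of 22 matrix genes (CPM plus 1, log axis) in the Postn-high cells (circles), Postn-low cells (squares) and tumour cells (crosses) of the vector-labelled (blue) and SPP1-labelled (orange) library. Col1a1, Col12a1, Col15a1, Lum, Tnc, Thbs2, Postn, Cthrc1, Lox and Mfap5 lie far above the other cells in the Postn-high cells, whereas Dcn and Ogn are not lower in the Postn-low cells.

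The proteoglycans divided the cells in another way. Lum was at 1288 and 1355 CPM in the Postn-high cells against 2.74 and 4.71 CPM in the tumour cells, and biglycan (Bgn) was at 3483 and 3932 against 519 and 625 CPM. Ogn, which encodes osteoglycin, was not lower in the Postn-low cells, at 215 and 457 CPM, as in the Postn-high cells, at 178 and 149.8 CPM, and both lay above the 32.4 and 33.5 CPM of the tumour cells. Dcn was at 2428 and 2097 CPM in the Postn-high cells, lower than in the Postn-low cells and above the tumour cells. Aspn, which encodes the collagen-binding protein asporin, was at 1243 and 2967 CPM in the Postn-high cells, 376 and 347 CPM in the Postn-low cells and 66.2 and 54.1 CPM in the tumour cells. In the list of small leucine-rich proteoglycans 6 of 7 compared genes were above the tumour cells in the Postn-high cells, beside 16.6% of all genes. In the Postn-low cells 4 of 5 were, beside 2.29%.

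Genes for elastic fibres and cross-linking were also above the tumour cells in the Postn-high cells, at 14 of 16 compared, beside 16.6% of all genes. Lox, which encodes the enzyme lysyl oxidase that cross-links collagen and elastin, was at 1671 and 1379 CPM against 0.258 and 0.226 CPM, and it was detected in 25 of 26 and 24 of 25 cells. Mfap5, a microfibril protein gene, was at 2107 and 2135 against 0.491 and 1.31 CPM. Fbn1, the fibrillin of microfibrils, was at 1468 and 1508 CPM in the Postn-high, 681 and 693 CPM in the Postn-low and 300 and 226 CPM in the tumour cells. Ltbp4, which encodes a protein that holds latent TGF-beta in the matrix, went the other way in the vector-labelled library, with 66.6 CPM in the Postn-high and 199 CPM in the tumour cells.

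Matricellular proteins, which sit in the matrix and signal to cells rather than build fibres, were well represented in the Postn-high cells. Postn itself was at 9636 CPM (9318 to 9962) and 9069 CPM (8724 to 9424), against 12.5 and 18.7 CPM in the tumour cells, as the split required. Tnc, which encodes tenascin C, was at 5973 and 5920.4 CPM against 11.3 and 8.19 CPM, and it was detected in 25 of 26 and 24 of 25 cells. Fibronectin (Fn1) was at 5168 and 4695 against 415 and 689 CPM, Sparc at 10763 and 10782 against 1881 and 2105 CPM, and thrombospondin 1 (Thbs1) at 1538 and 1557 against 3.10 and 2.94 CPM. Ccn2, a target of TGF-beta and mechanical signals, was at 439 and 366 against 0.724 and 0.779 CPM, while Ccn1 of the same family was at 938 and 606 against 657 and 696 CPM. Leaving out Postn, 11 of 12 compared matricellular genes, Spp1 among them, were above the tumour cells, beside 16.6% of all genes. Ccn1 was the exception.

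The myofibroblast list was above the tumour cells at 8 of 10 compared genes, beside 16.6% of all genes. Postn, which the split fixed, is among the 8. The contractile genes were concentrated in a few cells. Acta2, the smooth muscle actin gene, was at 641 and 348 CPM against 10.3 and 5.41 CPM, and it was detected in 16 of 26 and 14 of 25 cells. The 3 cells with most Acta2 held 79.2% and 62% of its UMIs, and 7 of the 51 cells held 10 UMIs or more. In the SPP1-labelled library 33 of the 100 Acta2 UMIs were in the cell with Rgs5, and without it the level there was 242 CPM and the log2 ratio between libraries -1.40, as against -0.88 with it. Tagln, which encodes the actin-binding protein transgelin, was at 427 and 425 CPM and had 50% and 70.5% of its UMIs in 3 cells. Cthrc1 was spread more evenly, at 627 and 804 CPM against 0.0749 and 0.296 CPM, with 38.5% and 35.9% in 3 cells. Lrrc15, a membrane protein gene known from myofibroblasts of tumours, was at 216 and 118 CPM and detected in 20 of 26 and 11 of 25 cells. Tpm1, the tropomyosin gene, was lower than in the tumour cells, at 408 and 293 against 609 and 691 CPM.

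Genes known from resting fibroblasts of many tissues went both ways in the Postn-high cells. Pi16 was detected in 9 of 26 and 8 of 25 of them, at 63.8 and 83.6 CPM. Cd34 was at 47.2 and 45.3 CPM and Ly6c1 at 77.7 and 48.8 CPM, both below the 387 and 391 CPM of Cd34 and the 268 and 294 CPM of Ly6c1 in the tumour cells. In the Postn-low cells they were higher, at 529 and 664 CPM for Cd34 and 921 and 1231 CPM for Ly6c1. Sema3c, which encodes a secreted semaphorin, was at 785 and 995 CPM in the Postn-low cells, 141 and 185 CPM in the tumour cells and 27.8 and 6.97 CPM in the Postn-high cells. Of this list of 12 genes, 8 were compared in the Postn-high cells. Above the tumour cells were 4 (Pi16, Col15a1, Cd248 and Dpt) and below them 3 (Cd34, Ly6c1 and Anxa3). Of all genes 16.6% were above and 7.81% below. In the Postn-low cells 4 of 6 compared were above, beside 2.29% of all genes.

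Among the genes by which the Postn-low cells stood above the tumour cells in both libraries were several of the resting fibroblast list. Sema3c, Ly6c1 and Ly6a belong to it, and Ogn, Aspn and Cd55 to other lists. All were named here after their values were seen. Ogn was above them by 2.73 and 3.77 on the log2 scale, Aspn by 2.51 and 2.68, Sema3c by 2.48 and 2.43, Ly6c1 by 1.78 and 2.07 and Ly6a, which encodes the surface protein Sca-1, by 1.24 and 1.94. Cd55, a complement regulator, was at 347 and 575 CPM against 80.7 and 57.9 CPM. Over all 3623 genes compared in the Postn-low cells 2.29% were higher and 1.02% lower than in the tumour cells. Their summed level of the 4 tumour genes was 351 and 317 CPM, against 153 and 174 CPM in the Postn-high cells and 2825 and 3074 CPM in the tumour cells, and the rule set all of these.

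Proteases and their inhibitors were expressed side by side. Mmp14, the membrane-bound collagenase, was at 641 and 508 CPM in the Postn-high cells against 74.6 and 95.04 CPM in the tumour cells, and Mmp2, which it activates, at 580.1 and 456 against 315 and 365 CPM. Timp1, an inhibitor of metalloproteinases, was at 1749 and 975 against 116 and 119.6 CPM, and Timp3 at 1563 and 2372 against 469.7 and 373 CPM. Timp2 was lower than in the tumour cells, at 389 and 320.4 against 623 and 644 CPM. Of 11 compared genes of this list 8 were above the tumour cells, beside 16.6% of all genes.

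Growth factor and cytokine receptors followed. Pdgfra was at 299.7 and 192 CPM against 36.8 and 37.1 CPM in the tumour cells and was detected in 23 of 26 and 16 of 25 cells, and Pdgfrb, which is also a pericyte receptor, was at 175 and 199 against 41.7 and 35.98 CPM. Egfr, the epidermal growth factor receptor, was at 389 and 369 CPM in the Postn-high cells, 4.13 and 0 CPM in the Postn-low cells and 1.14 and 0.717 CPM in the tumour cells. Tgfbr2, the type II receptor for TGF-beta, was at 777 and 456 against 85.03 and 64.1 CPM, and the interleukin 1 receptor gene Il1r1 was at 402 and 251 against 43.5 and 34.7 CPM. Igf1r was lower than in the tumour cells, at 219 and 233 against 429.5 and 393 CPM. Of 14 compared receptor genes 8 were 2-fold or more above the tumour cells, beside 16.6% of all genes.

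Among growth factors, Igf1 was at 383 and 495 CPM in the Postn-high cells against 0.200 and 0.327 CPM in the tumour cells and 75.4 and 85.4 CPM in the leukocytes. The 3 TGF-beta genes were all detected, with Tgfb1 at 108 and 104 CPM, Tgfb2 at 139 and 136 CPM and Tgfb3 at 74.9 and 149.8 CPM. Vegfa, the angiogenic factor, was below the tumour cells, at 139 and 216 against 291 and 317 CPM. The secreted Wnt antagonist Sfrp1 was at 377 and 345 against 0.0416 and 0.101 CPM. Igf1 and Sfrp1 were thus at or under 1 CPM in the tumour cells, and Vegfa was not.

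Chemokines and complement came next. Cxcl12, the ligand of CXCR4, was at 538 and 303 CPM in the Postn-high cells, 0 in the Postn-low cells and 0.0665 and 0.148 CPM in the tumour cells, and it was detected in 23 of 26 and 19 of 25 cells. Ccl11, which encodes eotaxin, was at 783 and 658 against 0.740 and 0.639 CPM. The monocyte chemokine Ccl2 was below the tumour cells and the leukocytes, at 444 and 637 CPM against 1264 and 1014 CPM in the tumour cells and 1297 and 1691 CPM in the leukocytes. Serping1, which encodes the C1 inhibitor, was at 1382 and 857 against 0.341 and 0.764 CPM, and C3, the central complement protein, at 452 and 97.5 against 2.97 and 3.31 CPM. Of 7 compared complement genes 6 were above the tumour cells, and of 11 compared inflammatory fibroblast genes 7 were, beside 16.6% of all genes.

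Interferon-induced Cxcl9 was found in a part of the member cells. It was detected in 4 of 22 and 4 of 14 Postn-low cells, with 27 and 4 UMIs. In the Postn-high cells it was at 594 and 568 CPM and was detected in 12 of 26 and 5 of 25 cells, and 3 cells held 70.6% and 96.3% of its UMIs. Iigp1, an interferon-induced GTPase gene, was at 672 and 459.7 against 155 and 149 CPM in the tumour cells. Cxcl10, induced by the same cytokine, was lower than in the tumour cells, at 52.7 and 38.3 against 314 and 307 CPM. Of 8 compared interferon genes 2 were above and 1 below the tumour cells, or 37.5%, beside 24.4% of all genes.

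Genes of antigen presentation were at or below the tumour level in the Postn-high cells. B2m, the light chain of class I molecules, was at 4668 and 2399.5 CPM in them, 4743 and 4353 CPM in the tumour cells and 7664 and 8922 CPM in the Postn-low cells. H2-K1, a class I heavy chain, was at 1343 and 658 CPM in the Postn-high, 2556 and 2069 CPM in the tumour and 3642 and 4070.2 CPM in the Postn-low cells. None of 6 compared class I genes was 2-fold above the tumour cells in both libraries, beside 16.6% of all genes. The 7 class II genes summed to 80.5 and 41.8 CPM in the Postn-high cells, 834 and 686 CPM in the Postn-low cells, 408 and 434 CPM in the tumour cells and 13723 and 8599 CPM in the leukocytes.

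Of 17 compared transcription factors of mesenchymal cells 4 were above the tumour cells and 1 below, 29.4% in all, beside 24.4% of all genes. Prrx1, a mesenchymal homeobox gene, was at 605 and 348 CPM in the Postn-high cells and 367 and 325 CPM in the tumour cells, and Twist1 at 178 and 94.03 against 106 and 101 CPM. Ebf1 was at 1404 and 1571 against 422 and 402 CPM. Ebf2, Meox1 and Meox2 had few UMIs in the tumour cells, with Ebf2 at 180.4 and 289 against 0.208 and 0.148 CPM, Meox1 at 83.3 and 94.03 against 0.0166 and 0.125 CPM and Meox2 at 24.98 and 118 against 0.00832 and 0.0390 CPM. These 3 genes and Ebf1 were the 4 above, and Twist2, at 74.9 and 13.9 against 171 and 166 CPM, was the 1 below.

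Proliferation genes were low. Mki67 was detected in 4 of 26 and 4 of 25 Postn-high cells, at 27.8 and 31.3 CPM against 223 and 215 CPM in the tumour cells, and Top2a, which encodes the topoisomerase of dividing cells, was at 47.2 and 10.4 against 497 and 469.8 CPM. All 5 compared genes of this list were below the tumour cells in both libraries, beside 7.81% of all genes. Of 9 compared glycolysis and hypoxia genes 1 was 2-fold lower in both libraries, beside 7.81% of all genes. Ldha was at 241 and 310.0 against 569 and 502 CPM and Eno1, the gene that passed, at 47.2 and 55.7 against 245 and 213 CPM. Of 16 compared immediate early and stress genes, which dissociation is known to induce, 2 were above the tumour cells and 2 below. This was 25%, beside 24.4% of all genes. Fos was at 4505 and 4311 against 2229.9 and 2005 CPM, Jun at 1088 and 1170.2 against 1071 and 1195 CPM and the chaperone gene Hsp90aa1 at 291 and 432 against 834 and 1064 CPM. Of 7 compared targets of p53 only Trp53inp1 and Zmat3 were above the tumour cells and none below, or 28.6%, beside 24.4% of all genes. Zmat3 was at 61.1 and 38.3 against 17.2 and 14.1 CPM.

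Ranked by the smaller of the 2 library ratios to the tumour cells, among genes at 100 CPM or more, the leading genes of the Postn-high cells were Lox, Pcsk5, Sulf1, Igfbp5, Smoc2, Sfrp1, Fndc1, Cyp1b1, Svep1, Cthrc1, Gpx3, Serpine2, Slit3, Sgce and Cxcl12. Igfbp5, which encodes a binding protein of insulin-like growth factors, had the most UMIs of these, at 2769.9 and 2128 CPM against 0.308 and 0.530 CPM, and it was detected in 16 of 26 and 20 of 25 cells. Pcsk5, a proprotein convertase gene, was at 1218 and 539.8 against 0.266 and 0.125 CPM. Sulf1, which encodes a sulfatase that edits heparan sulfate, was at 613 and 1069 against 0.141 and 0.249 CPM, and Gpx3, a secreted glutathione peroxidase gene, at 758 and 539.8 against 0.216 and 0.218 CPM. The axon guidance ligand gene Slit3 was at 963 and 871 against 0.200 and 0.390 CPM and was detected in 25 of 26 and 23 of 25 cells.

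In the other direction the list was led by Tnnt2, Ccnd1, Cdh13, Ankrd1, Nppb, Rad51b, Klra4, Ifitm1, Igf2bp2, Dkk2, Gpr149, Sms, Nav2, Racgap1 and Slc38a1. Ccnd1, which encodes cyclin D1, was at 22.2 and 24.4 CPM in the Postn-high cells and 732 and 595 CPM in the tumour cells. Cdh13, a cadherin gene, was at 11.1 and 24.4 against 538 and 522 CPM, and Ankrd1, a target of the YAP coactivator, at 8.33 and 6.97 against 176 and 173 CPM. The Postn-low cells held these genes near the tumour level, with Cdh13 at 611 and 568 CPM, Ankrd1 at 157 and 251 CPM and Ccnd1 at 339 and 221 CPM.

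The summed level of Spp1 was higher in the Postn-high cells than in the pooled leukocytes, the Postn-low cells and the tumour cells, but a few cells carried it. The leukocytes are a mixture of all kinds with a Ptprc UMI. Their level is thus not that of phagocytes, which were not compared apart. Its level was 13683 CPM (13304 to 14070.3) in the vector-labelled and 5489 CPM (5221 to 5766) in the SPP1-labelled library, above the leukocytes at 2050.4 and 2579 CPM, the Postn-low cells at 173 and 66.4 CPM and the tumour cells at 148 and 141 CPM. It was detected in 20 of 26 and 24 of 25 cells, with a median of 42.5 and 14.7 UMIs per 10000 and a highest cell of 773 and 361. In each library 3 cells held 53.4% and 64.3% of the UMIs, and 15 of the 51 cells held 100 UMIs per 10000 or more. Without those 3 cells of each library the level was 7218 and 2316 CPM, which in the SPP1-labelled library is below the leukocytes. The level thus varied widely among the Postn-high cells, and 6 of the 26 in the vector-labelled library held no Spp1 UMI.

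The level was lower in the SPP1-labelled library. The log2 ratio of the SPP1-labelled over the vector-labelled library was -1.32 (-1.40 to -1.24) in the Postn-high cells and -1.14 (-1.22 to -1.06) in all members, and -1.64 in the Postn-high cells without the 3 highest cells of each library. As a mean over all member cells that weights each cell equally the ratio was -0.86, so the size of the difference depends on which cells are weighted. The share of Postn-high cells with a UMI went the other way, at 76.9% and 96%, and at 76.9% and 92% after thinning to 2000 UMIs, so no order of the libraries is read from the share. Phagocytes also express Spp1, and the phagocyte markers Lyz2 and C1qa were at 16.7 and 20.9 CPM and 5.55 and 3.48 CPM in these cells, against 4633 and 5997 CPM and 926 and 1357 CPM in the leukocytes.

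**Figure D3:**
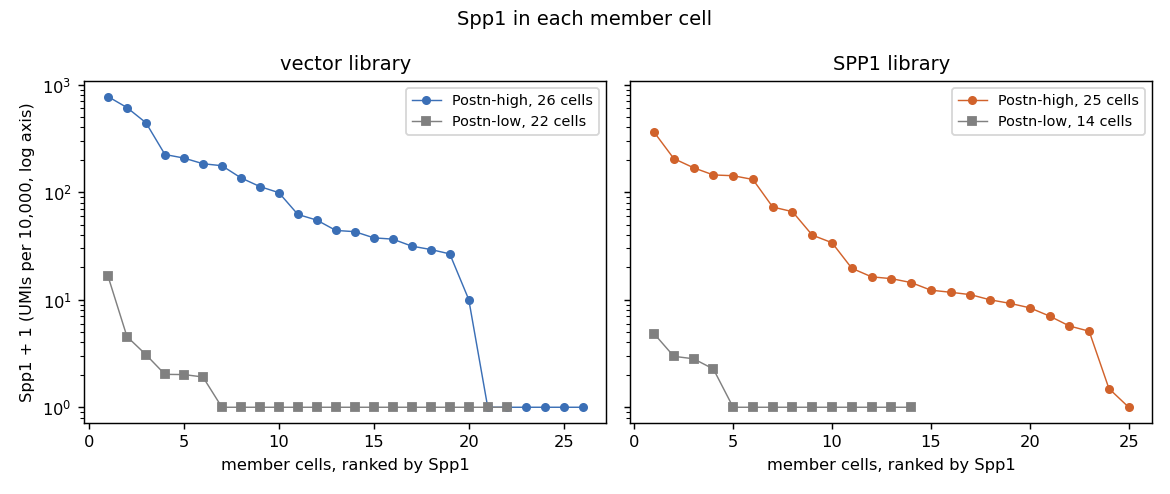
Spp1 in each member cell (UMIs per 10000 plus 1, log axis), ranked from highest to lowest within the Postn-high (coloured circles) and Postn-low (grey squares) cells of each library. The values drop steeply in both libraries, and no Postn-low cell reaches 100 UMIs per 10000.

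Of the receptors of osteopontin, Cd44 was at 785 and 829 CPM in the Postn-high cells, below the 1310.2 and 1273 CPM of the tumour cells. The integrin subunits Itgav and Itgb1 were near the tumour level, with Itgav at 283 and 199 against 245 and 251 CPM and Itgb1 at 480.1 and 557 against 352 and 322 CPM. Itgb5, Itgb3 and Itga9 were the 3 of 7 compared that lay above the tumour cells, beside 16.6% of all genes. Itgb5 was at 330.3 and 167 against 85.1 and 64.6 CPM, Itgb3 at 52.7 and 24.4 against 3.83 and 2.28 CPM and Itga9 at 47.2 and 41.8 against 0.516 and 0.608 CPM. Between the libraries the log2 ratio was 0.078 (-0.18 to 0.33) for Cd44 and -0.98 (-1.50 to -0.49) for Itgb5.

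The comparison of the libraries within the Postn-high cells asks how fibroblasts differed between a tumour of the SPP1-labelled line and one of the vector-labelled line under anti-PD-1. Of the 4902 genes compared, 11.5% differed by 2-fold or more, 5.43% higher and 6.12% lower in the SPP1-labelled library. In all 6740 genes compared in the members together the share was 8.90%, with 3.83% higher and 5.07% lower. The median log2 ratio over all genes was 0.047 in the Postn-high cells on this scale, which sets each group's total to the same sum. Of 50 genes compared in the 5 lists of matrix genes, leaving out Postn, 5 were 2-fold higher and 6 lower, or 22%, beside 11.5% of all genes. Abundant ones among the others were Tnc, with a log2 ratio of -0.013 (-0.11 to 0.08), Sparc, with 0.0025 (-0.066 to 0.071), and Lum, with 0.073 (-0.13 to 0.27). Col1a1 was lower, at -0.57 (-0.62 to -0.52), with a per-cell median of 209 and 182 UMIs per 10000. The cells ran from 50.7 to 647 and from 60.2 to 296, so they overlapped, and the highest were in the vector-labelled library.

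The genes that were lowest in the SPP1-labelled library were Mmp3, Igfbp3, Apod, Dpt, Lpl, Sfrp2, Adamts5, Ifi205, Ccn3 and F3. Mmp3, which encodes the protease stromelysin 1, was at 214 and 3.48 CPM and was detected in 10 of 26 and 1 of 25 cells. Its log2 ratio was -5.94 (-11.26 to -3.42), and 3 cells held 75.3% of its UMIs in the vector-labelled library. Igfbp3, a binding protein of insulin-like growth factors, was at 358 and 13.9 CPM and detected in 14 of 26 and 2 of 25 cells, with a log2 ratio of -4.68 (-6.58 to -3.29). Dpt, which encodes the matrix protein dermatopontin and marks resting fibroblasts, was at 216 and 17.4 CPM and detected in 13 of 26 and 4 of 25 cells, with a log2 ratio of -3.64 (-5.30 to -2.35). These 3 genes were found in a part of the cells of the vector-labelled library and in at most 4 cells of the other.

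Sfrp2, a secreted Wnt modulator, was at 358 and 41.8 CPM and detected in 13 of 26 and 4 of 25 cells, with a log2 ratio of -3.10 (-4.09 to -2.24). Lpl, the lipoprotein lipase gene, was at 583 and 62.7 CPM and detected in 20 of 26 and 6 of 25 cells, with a log2 ratio of -3.22 (-4.00 to -2.52). Adamts5, which encodes a protease of proteoglycans, was at 402 and 48.8 CPM and detected in 18 of 26 and 8 of 25 cells, with a log2 ratio of -3.05 (-3.95 to -2.25). Without the 3 highest cells of each library the log2 ratio was -5.21 for Sfrp2, -5.10 for Lpl and -2.58 for Adamts5. The genes of this ranking were chosen to stay past 1.5-fold without those cells, so this is no finding. Few UMIs were then left in the SPP1-labelled library, where 3 cells held 91.7% of the Sfrp2 and 83.3% of the Lpl UMIs. A ratio in which a library then held no UMI is taken against the level of 3 UMIs.

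Most of the complement genes compared were lower as well, and the inflammatory genes went both ways. C3 was at 452 and 97.5 CPM, was detected in 21 of 26 and 7 of 25 cells, and had a log2 ratio of -2.21 (-2.85 to -1.63). Of 7 compared complement genes 5 were 2-fold or more lower in the SPP1-labelled library and none higher, beside 6.12% of all genes, and their median log2 ratio was -1.43. Besides C3 these included C1ra at -1.87 (-3.03 to -0.87), C4b at -1.43 (-2.78 to -0.25) and the regulator Cd55 at -1.92 (-3.94 to -0.33). Cd55 rested on few UMIs, 19 and 4, and without the highest cell of each library on 5 and 2. Il33, which encodes an alarmin cytokine, was at 358 and 125 CPM with a log2 ratio of -1.51 (-2.09 to -0.97), and Il6 was at 144 and 31.3 CPM with -2.20 (-3.41 to -1.17). Cxcl1, a neutrophil chemokine gene, was higher, at 228 and 515 CPM with 1.18 (0.78 to 1.59), and Ccl11 hardly differed, at -0.25 (-0.52 to 0.021). In the inflammatory list 4 of 11 compared genes were lower and 2 higher, beside 6.12% and 5.43% of all genes.

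The genes that were highest in the SPP1-labelled library were Angptl1, H19, Mest, Kcnma1, Cited2, Hspb1, Fndc1, Ptn, Plagl1 and Rnf217. Angptl1, which encodes a secreted angiopoietin-like protein, was at 8.33 and 258 CPM and detected in 3 of 26 and 12 of 25 cells, with a log2 ratio of 4.95 (3.35 to 7.26). Kcnma1, the large-conductance calcium-activated potassium channel gene, was at 72.2 and 717 CPM and detected in 8 of 26 and 20 of 25 cells, with a log2 ratio of 3.31 (2.72 to 3.96). Fndc1, a matrix protein gene with fibronectin type III domains, was at 133 and 575 CPM and detected in 17 of 26 and 24 of 25 cells, with a log2 ratio of 2.11 (1.64 to 2.60). Fndc1 was the most evenly spread of them, with 41.7% and 32.1% of its UMIs in 3 cells, against 71.6% for Angptl1 in the SPP1-labelled library.

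Several matrix and secreted genes followed. Aspn was at 1243 and 2967 CPM, with a per-cell median of 9.59 and 26.3 UMIs per 10000 and a log2 ratio of 1.25 (1.09 to 1.42). Smoc2, a calcium-binding matricellular gene, was at 144 and 453 CPM with a log2 ratio of 1.65 (1.17 to 2.14), and Sparcl1, a relative of Sparc, at 233 and 613 CPM with 1.39 (1.01 to 1.79). Ptn, which encodes the growth factor pleiotrophin, was at 69.4 and 282 CPM with 2.02 (1.36 to 2.73). The transcription factor gene Meox2 was at 24.98 and 118 CPM and detected in 7 of 26 and 14 of 25 cells, with a log2 ratio of 2.24 (1.15 to 3.49). In the opposite direction Tbx15 had -2.15 (-3.36 to -1.11), Tbx18 -1.84 (-3.00 to -0.83) and Twist2 -2.43 (-4.40 to -0.91). They rested on few UMIs, 50 and 9 for Tbx15, 45 and 10 for Tbx18 and 27 and 4 for Twist2. Of 17 compared transcription factors 5 were lower and 1 higher, beside 6.12% and 5.43% of all genes.

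**Figure D4:**
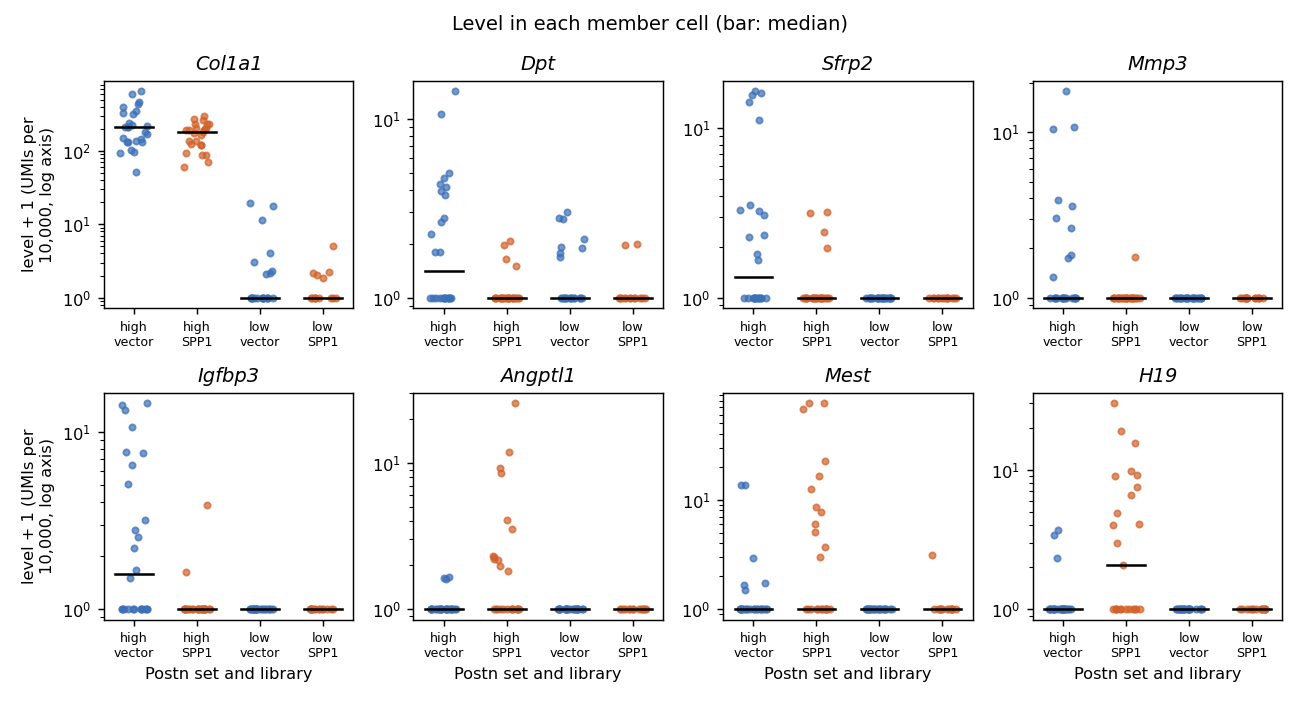
Level of 8 genes in each member cell (UMIs per 10000 plus 1, log axes), by Postn set and library, with the median as a bar. Col1a1 fills all Postn-high cells of both libraries, whereas Dpt, Sfrp2, Mmp3 and Igfbp3 are found mainly in vector-labelled and Angptl1, Mest and H19 mainly in SPP1-labelled Postn-high cells, in a part of the cells.

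**Figure D5:**
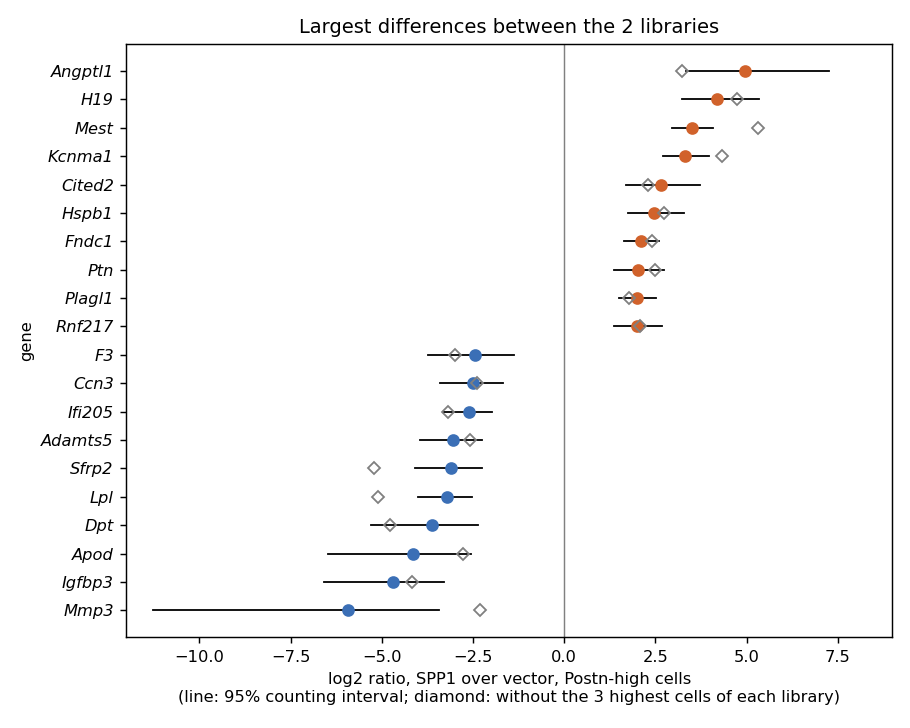
The 10 genes lowest and the 10 highest in the SPP1-labelled library among the Postn-high cells, as log2 ratios (points) with 95% counting intervals (lines) and, as diamonds, without the 3 highest cells of each library. All 20 keep their side of 0 without those cells, as the rule for choosing them required. A library left with no UMI is set to the level of 3 UMIs, so that its diamond is a bound.

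Of 6 class I presentation genes compared 3 were 2-fold lower in the Postn-high cells of the SPP1-labelled library (H2-K1, H2-D1 and the immunoproteasome gene Psmb8) and none higher, beside 6.12% of all genes. The log2 ratio was -0.96 (-1.09 to -0.83) for B2m, -1.03 (-1.28 to -0.78) for H2-K1 and -1.02 (-1.37 to -0.69) for H2-D1. The per-cell median of B2m was 36.5 and 16.95 UMIs per 10000, with cells from 1.98 to 166 and from 6.36 to 84.8, so the groups of cells overlapped. In the Postn-low cells the log2 ratio of B2m was 0.22 (0.11 to 0.32) and that of H2-K1 0.16 (0.0042 to 0.32), and the tumour cells held B2m at 4743 and 4353 CPM. Whether the ratio differs between these kinds of cell was not tested, since each library is 1 sample.

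In the Postn-low cells 11.9% of 3623 genes differed by 2-fold between the libraries, 4.33% higher and 7.54% lower in the SPP1-labelled one, on 22 and 14 cells. Proliferation genes were lower at 9 of 10 compared, with a median log2 ratio of -2.80, but a single cell carried this difference. It held 452 of the 578 UMIs of the proliferation list in the 22 vector-labelled cells, or 78.2%. Without the cell of most such UMIs in each library only 2 of these genes still held 20 UMIs, and neither was past 2-fold. In all members together 10 of 11 compared proliferation genes were lower with that cell and 3 of 6 without the highest cell of each library. In the Postn-high cells 3 of 5 were lower, and 0 of 2 without the highest cells. Ogn was higher in the SPP1-labelled library, at 1.09 (0.53 to 1.65), and Dcn had -0.22 (-0.40 to -0.038). Ogn was detected in 11 of 22 and 7 of 14 cells, and 3 cells held 65.4% and 67.7% of its UMIs. Without the cell of most proliferation UMIs in each library 0 of 5 compared small leucine-rich proteoglycan genes, Ogn included, were 2-fold higher.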

How the data were processed

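Single cells from 2 tumours, 1 per group, were profiled in droplets. The authors deposited whole-number UMI counts per gene and barcode, not normalized, with Cell Ranger 2.1.1 and the build GRCm39 named in the submitters' processing notes. The annotation is not given in the sources used here. The deposited tables list 56941 genes, and genes under 147 symbols that occur more than once were left out of the comparisons. From these counts, UMIs were summed over the cells of a class and divided by their total (CPM). Log2 ratios were compared by size for genes with at least 20 UMIs in a set of cells, and a gene was called at 2-fold or more, in both libraries for ratios to the tumour cells. Intervals are 95% exact Poisson intervals for levels, exact binomial for shares, and conditional binomial for ratios. A count of 0 was given a limit of 3 counts. Cells were thinned to 2000 UMIs for shares of cells at equal depth. Doublets were called with Scrublet in scanpy 1.11.5 and marked, not removed. Python 3.11.15, numpy 2.4.6, scipy 1.17.1 and pandas 2.3.3 were used. The ratio step was checked on simulated counts.

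The members and the 33 gene lists were chosen with earlier results of these data known, and the split on Postn after the values were seen. Named genes were the markers, Spp1 and the osteopontin receptors, up to 5 members of each list by level or fold, the 15 in each direction with the largest ratio to the tumour cells in the library where it was smaller, at 100 CPM or more, and the 10 in each direction by ratio between libraries, with at least 50 UMIs, a UMI in at least 20% of the cells of the higher library, an interval beyond 1.5-fold, and 1.5-fold without the 3 highest cells. The rule was written for all members and applied in the same way to the Postn-high cells; some further list members were named after their values were seen. Alternatives covered thinning, median-of-ratios size factors, the filter on low counts, a mean per cell, leaving out the 3 highest cells, and other limits of the rule. A single library per group allows no test, so each value is a description of these 2 tumours.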

Additional observations from a re-analysis of the deposited data

How the results depend on the processing

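The share of member cells kept a log2 ratio between libraries of -0.59 to -0.0083 under every alternative run, against -0.31. The number of genes 2-fold or more from the tumour cells, 1001 in all members, was 269 after thinning, 4060 with no filter on low counts and 367 with the 9 and 6 cells that held no UMI of the 4 tumour genes. The number past 2-fold between libraries, 600 in all members, was 163, 1908 and 286 in the same order. Thinning leaves fewer UMIs and those 15 cells fewer cells, so that fewer genes hold 20 UMIs. The log2 ratio of Spp1 between libraries, -1.14 in all members, was -0.86 as a mean per cell, -0.84 after thinning, -1.47 without the 3 highest cells of each library and -2.82 in cells with no UMI of the tumour genes. In alternatives chosen after seeing the data it was -1.32 in the Postn-high cells and -1.46 in members with an Xist UMI, so it was below 0 in each of these. Single genes were followed for 81 named genes in each comparison, most of them chosen for large ratios, so these counts do not speak for all genes. Against the tumour cells 76 were past 2-fold, and 1131 of 1131 values kept their sign over 15 alternatives. Between libraries 37 were past 2-fold, and 518 of 525 values kept it, and of list medians 217 of 219. Genes named for a difference between libraries had been required to hold without the 3 highest cells. Leaving out doublets or the filter on low counts could not change the ratio of a single gene. The exceptions between libraries were Cenpf, at 0.11 after thinning, 0.55 in the Postn-high cells and 0.034 without the cell of most proliferation UMIs in each library, Cited2, at -0.29 after thinning, Nppb, at 2.16 in cells with at least 2 Col14a1 UMIs, and, in cells with no UMI of the tumour genes, Igf2bp2 at 0.70 and Itgb3 at 0.44. The median ratio of the genes of resting fibroblasts to the tumour cells was -0.48 in cells with at least 2 Col14a1 UMIs and -0.64 in members with an Xist UMI. Leaving out the cell with Rgs5, or the cell of most proliferation UMIs in each library, both chosen after seeing the data, moved no count of genes past 2-fold over all genes by over 1.5 times. The causes of the other reversals were not tested. No paired analysis was possible because each group is 1 library.

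With 26 and 25 Postn-high cells, a gene with no UMI in 1 library can still be at up to 8.33 or 10.4 CPM, and differences between the 2 tumours cannot be told apart from differences between mice, digestions or libraries.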

Other observations

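Of 9 imprinted genes, which are expressed from a single parental copy, 5 were 2-fold or more higher in the Postn-high cells of the SPP1-labelled library. The 9 were picked after the values were seen and are no fixed list, and 5.43% of all genes compared were higher. H19 was at 24.98 and 456 CPM and detected in 3 of 26 and 13 of 25 cells, with a log2 ratio of 4.19 (3.22 to 5.35) for the SPP1-labelled over the vector-labelled library. Mest was at 83.3 and 937 CPM and detected in 6 of 26 and 12 of 25 cells, with 3.49 (2.94 to 4.09), Plagl1 at 125 and 501 CPM with 2.01 (1.51 to 2.52), Grb10 at 149.9 and 508 CPM with 1.76 (1.30 to 2.24), Ndn at 24.98 and 59.2 CPM with 1.24 (-0.001 to 2.59), and, short of 2-fold, Meg3 at 744 and 1278 CPM with 0.78 (0.55 to 1.01). The other 3 were Peg3, which was at 77.7 and 55.7 CPM with -0.48 (-1.46 to 0.46), Sgce, at 105 and 101 CPM with -0.062 (-0.81 to 0.67) and Igf2r, at 158 and 219 CPM with 0.47 (-0.068 to 1.01). Igf2, the neighbour of H19, held 0 UMIs in these cells and in the tumour cells, and Nnat held 0 UMIs in these cells. In the tumour cells H19 was at 0.0250 and 0.171 CPM and Mest at 0.108 and 0.249 CPM. Plagl1 was detected in 14 of 26 and 13 of 25 cells, so its share of cells did not differ as its level did. The 3 highest cells of each library held 100% and 54.2% of the H19 UMIs and 90% and 65.8% of the Mest UMIs. They held 57.8% and 63.9% for Plagl1, 38.9% and 52.1% for Grb10 and 34.0% and 37.6% for Meg3.

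Saa3, an acute-phase gene, was found in 3 Postn-high cells of the vector-labelled library, with 59 UMIs, and in 0 of 25 of the other, which allows up to 12% of cells with a UMI. Efemp1, a fibulin gene, held 43 UMIs in 7 vector-labelled cells and 0 in the other library, a log2 ratio of at most -3.51 against a floor of 3 UMIs.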
